A study of Mus musculus with 3 samples.

Results

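The clustered histone genes of the mouse were taken from the deposited table as all rows of protein-coding biotype whose symbol begins with Hist1h, Hist2h, Hist3h or Hist4h. The rule found 68 genes among the 39179 of the table, of which 22740 are protein-coding. By the prefix of the symbol, 55 belong to Hist1 on chromosome 13, 10 to Hist2 on chromosome 3, 2 to Hist3 on chromosome 11 and 1 to Hist4 on chromosome 6. Position was not used for this grouping, and Hist1h2al lies at chr13:51202688-51203065, far from the other Hist1 genes. Over the 3 libraries, 42 of the 68 had a mean value of 10 or more and are described singly or by group, and 16 of these had a mean of 100 or more. The other 26 stayed under a mean of 10 and are summarised at the end. The genes nearest that limit were Hist1h2ac with a mean of 11.7 and Hist1h3d with 10.4 above it, and Hist3h2ba with 8.03 and Hist1h3e with 7.14 under it.

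The libraries come from one mouse embryonic stem cell line that carried an eGFP reporter of Cntn2 (contactin 2, an adhesion gene used to mark cardiac Purkinje cells) and, from a lentivirus, mCherry under the promoter of Myh6 (the alpha heavy chain of cardiac myosin). Every culture was differentiated and given sodium nitroprusside, a nitric oxide donor, on day 4, and cells were sorted by flow cytometry on day 25. The populations were cells with eGFP and dim mCherry (GFP), cells with mCherry (MHC) and cells with neither reporter (NEG), all nitroprusside-treated. Each population had 1 library, so there is no replicate spread, no test and no p-value, and a difference below describes these libraries. A population was defined by its fluorescence in the sorter, and sorted cells of more than 1 type may share a gate. Values are read counts divided by 1 size factor per library, and 1 read was worth 0.914 in GFP and 1.01 in MHC, against 1.13 in NEG. Recovered reads summed over genes numbered 52109065 in GFP and 52826956 in MHC, against 47289405 in NEG. Intervals in brackets are exact 95% Clopper-Pearson intervals of a ratio of reads and cover counting error only.

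The labels were set against marker genes. Cntn2 had a value of 10045 in GFP and 228 in MHC, against 204 in NEG, and Myh6 had 4694 in GFP and 186924 in MHC, against 3843 in NEG. All 9 epicardial and mesothelial markers examined were past 2-fold higher in GFP than in both other libraries, and their summed value was 158683 in GFP and 5696 in MHC, against 5568 in NEG. Of 8 Purkinje markers, Cntn2 among them, 4 were higher and 4 lower in GFP than in MHC, and 4 were higher and 2 lower in GFP than in NEG. Of 8 fibroblast markers, 3 were higher and 5 lower in GFP than in MHC, and of 5 smooth muscle markers, 1 was higher and 4 lower. Of 6 haematopoietic markers 3 had a mean of 10 or more, and 2 of these were higher in GFP than in MHC. Of 6 pluripotency markers 1 reached that mean, Zfp42, and it was lower in GFP than in MHC and higher in MHC than in NEG. Of 10 cardiomyocyte markers, Myh6 among them, 0 were higher and 9 lower in GFP than in MHC. Against NEG, 3 were higher and 1 lower in GFP. All 10 were higher in MHC than in NEG, while 0 of the 8 fibroblast markers passed 2-fold in that pair. Of 6 endothelial markers 4 had a mean of 10 or more, and 1 was higher and 2 lower in GFP than in MHC. Of 7 neuronal markers 6 had that mean, and 2 were higher and 1 lower in GFP than in MHC. By the same 2-fold rule, given below, 14.5% of all genes were higher and 15.3% lower in GFP than in MHC. The shares were 13.0% and 14.0% for GFP against NEG, and 4.92% and 4.74% for MHC against NEG. These differences in cell type markers stand beside every histone ratio below, and their part in those ratios was not tested. In bulk RNA, fewer cells of a type and less RNA per cell cannot be told apart.

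Histones package DNA. The core histones H2A, H2B, H3 and H4 form the nucleosome, and the linker histone H1 binds the DNA that enters and leaves it. The clustered genes are known as replication-dependent histone genes, because most of their mRNA is made in S phase, when new DNA has to be packaged. Their mRNAs typically end just after a conserved stem-loop, which is bound by the stem-loop binding protein Slbp, and lack a poly(A) tail. Several of the genes are also known to give polyadenylated mRNAs that run past the stem-loop, in differentiated cells in particular. How mRNA was enriched for these libraries is not given in the protocols, so the values are of whatever histone RNA the kit kept.

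The stem-loop is shown first because it is the element these genes share. A stem-loop of 16 bases, with a perfect stem of 6 base pairs that starts with GG and a loop of 4 bases that starts with TT, was found in the annotated GENCODE M21 transcripts of 44 of the 68 genes. Capitals mark the arms of the stem and lower case the loop, written 5′ to 3′ as DNA. The first form was in 26 genes of the H1, H2A, H2B and H3 types, the second in 7 H4 genes, and the third in 6 genes. The remaining genes carry close forms that differ in a stem pair or a loop base.

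Hist1h1c, Hist2h2aa1 and Hist2h3c1: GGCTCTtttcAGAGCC

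Hist1h4h and Hist4h4: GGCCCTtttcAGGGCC

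Hist1h2bk and Hist1h2bb: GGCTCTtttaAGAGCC

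The annotated 3′ ends divide the genes. In 22 genes a transcript runs more than 100 bases past the stem-loop, and 16 of them had a mean of 10 or more. In another 22 the annotated transcript stops within 100 bases of it, and 13 of these had a mean of 10 or more. No stem-loop of this form was found in the remaining 24, of which 13 had a mean of 10 or more. Some annotated transcripts of the 24 are short, such as 381 bases in Hist1h2bl and 393 in Hist1h2an, and may stop before a stem-loop. The median of the mean values was 21.0 for genes with a longer annotated end, 16.3 for genes that stop near the stem-loop and 21.3 for genes without a match. By type, the medians for the longer and the near end were 11.7 and 4.28 in H2A and 101 and 49.8 in H2B. They were 10.4 and 3.49 in H3 and 17.0 and 16.6 in H4. Each median by type is over 3 to 8 genes. These classes describe the GENCODE annotation and not the ends of the RNA in these libraries. The span counted can also be shorter, as Hist1h1e spans 748 bases though its annotated end lies 1153 bases past the stem-loop. The highest member, Hist1h1c, has an annotated end 840 bases past the stem-loop. In Hist3h2a the annotated end lies 1643 bases past it, and in Hist2h3c1 1167 bases.

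Promoter windows of 250 bases before the start were found in RefSeq (GRCm38.p6) for 62 of the 68 genes. They were searched on both strands for TATAAA, the core of the TATA box, for CCAAT, and for TTTGCAT, part of the octamer known from H2B promoters. TATAAA was present in 46.8% of the histone windows and in 12.4% of all 32851 windows of the table. CCAAT was present in 82.3% of the histone windows and 33.8% of all windows. It was in all 18 H2A, all 16 H2B and all 6 H1 windows, in 8 of 10 H3 windows and in 3 of 12 H4 windows. TTTGCAT was in 22.6% of the histone windows against 4.12% of all windows, in 7 of 18 H2A, 6 of 16 H2B and 1 of 12 H4 windows. A match is only a match of letters. Windows of head-to-head H2A and H2B genes can overlap, so 1 motif can be counted for both types. Hist1h2aa (chr13:23934187-23934436) and Hist1h2ba (chr13:23934157-23934406) are such a case. The windows below belong to the highest member (Hist1h1c), to the interval shared by a head-to-head H2A and H2B pair (Hist1h2ac, whose partner is Hist1h2bc) and to the H3 gene with the highest mean (Hist2h3c1). Capitals mark the motifs on either strand. The Hist1h1c window has 1 CCAAT, the Hist1h2ac window has all 3 motifs, and the Hist2h3c1 window has none. They cover chr13:23738557-23738806 (plus strand), chr13:23683960-23684209 (minus strand) and chr3:96246435-96246684 (plus strand).

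Hist1h1c: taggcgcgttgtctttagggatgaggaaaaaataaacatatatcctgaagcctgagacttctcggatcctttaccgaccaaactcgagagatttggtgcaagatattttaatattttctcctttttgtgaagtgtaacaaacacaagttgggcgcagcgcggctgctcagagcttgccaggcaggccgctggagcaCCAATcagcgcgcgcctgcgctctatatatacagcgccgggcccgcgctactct

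Hist1h2ac: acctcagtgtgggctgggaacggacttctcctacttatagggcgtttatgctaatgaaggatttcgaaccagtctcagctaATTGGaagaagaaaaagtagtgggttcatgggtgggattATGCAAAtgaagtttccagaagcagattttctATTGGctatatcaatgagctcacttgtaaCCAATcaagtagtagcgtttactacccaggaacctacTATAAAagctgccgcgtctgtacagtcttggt

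Hist2h3c1: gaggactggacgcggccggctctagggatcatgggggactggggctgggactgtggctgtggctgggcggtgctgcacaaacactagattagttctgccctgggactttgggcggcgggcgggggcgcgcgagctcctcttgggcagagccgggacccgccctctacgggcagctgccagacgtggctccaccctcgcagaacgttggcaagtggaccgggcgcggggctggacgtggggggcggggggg

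Over all 68 genes, histone reads made up 0.0248% of all reads in GFP and 0.0121% in MHC, against 0.0208% in NEG, and the MHC library was the low one. The summed value was 11814 in GFP and 6456 in MHC, against 11104 in NEG. A read that fits several near-identical genes may be counted in each, so these sums and shares may hold it more than once. The sum was 1.83-fold higher in GFP than in MHC, 1.06-fold higher in GFP than in NEG, and 0.581 times as high in MHC as in NEG. Hist1h1c alone held 47.0% of the sum in GFP, 49.6% in MHC and 47.8% in NEG. Without it the sums were 6260 in GFP and 3253 in MHC, against 5795 in NEG, in the same order.

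A gene was counted as different at 2-fold or more on the log2(value + 1) scale if the higher library also reached a value of 20. This is a rule of size, and the scale understates the differences of low genes. Against MHC, 16 of the 42 histone genes (38.1%) were higher in GFP and 0 were lower, where 14.5% of all 22235 genes with a mean of 10 or more were higher and 15.3% lower. Against NEG, 0 of the 42 were higher in GFP and 1 (2.38%) was lower, where the background was 13.0% higher and 14.0% lower. Between the other two, 0 of the 42 were higher and 12 (28.6%) lower in MHC than in NEG, where the background was 4.92% higher and 4.74% lower. The median log2 difference of the 42 genes was 0.94 for GFP against MHC, 0.18 for GFP against NEG and -0.51 for MHC against NEG. The same medians over all 22235 genes were -0.0013, 0.0076 and -0.013. The MHC library held the lowest value of 32 of the 42 genes, NEG of 8 and GFP of 2. These pairwise comparisons share libraries and are not independent of each other.

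**Figure D1:**
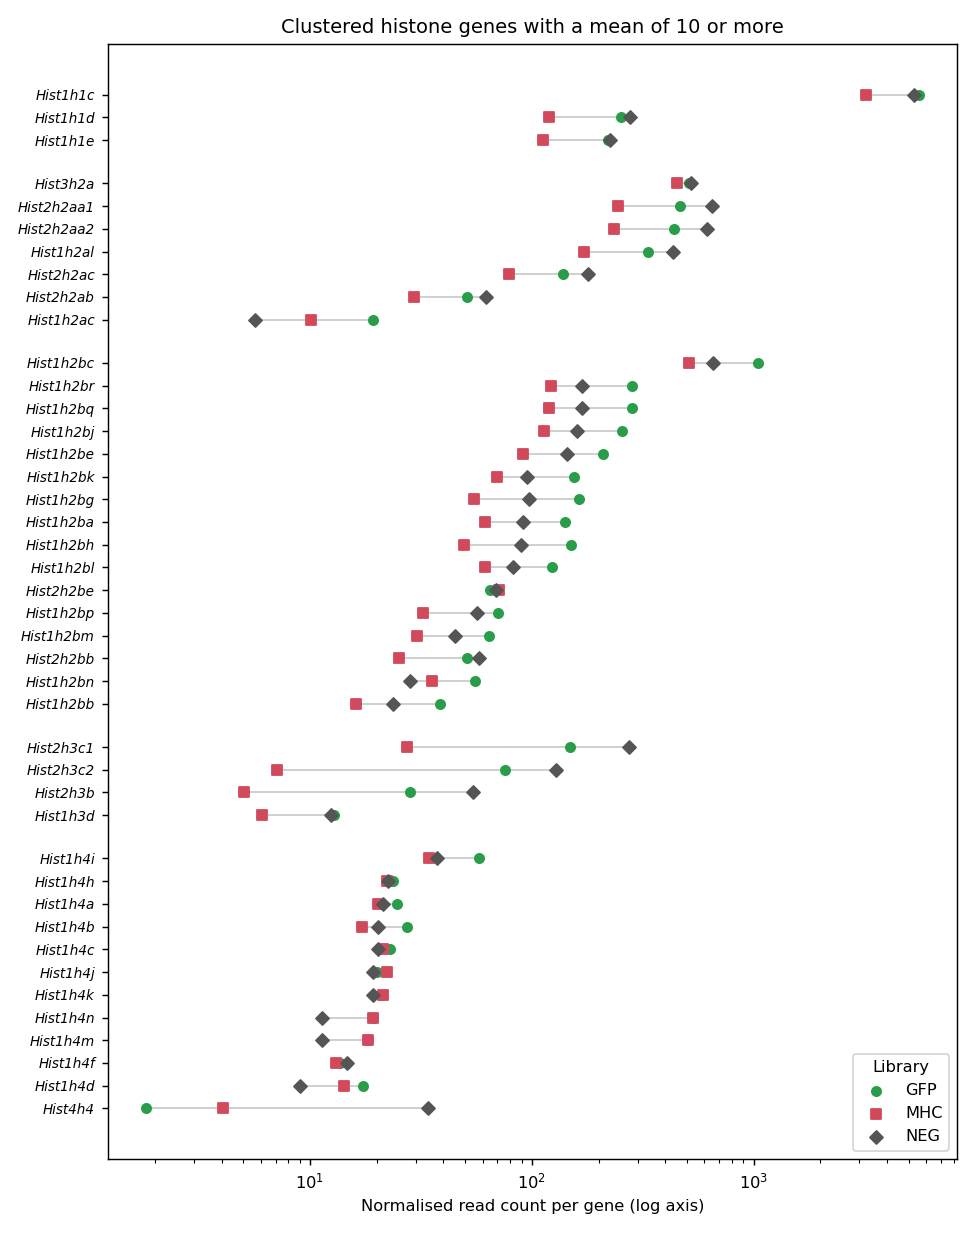
Value per gene (read count over size factor, log x axis) of the 42 histone genes with a mean of 10 or more, 1 row per gene in blocks of H1, H2A, H2B, H3 and H4, with a circle for GFP, a square for MHC and a diamond for NEG joined by a grey line. Hist1h1c stands far right at 5554, 3203 and 5309, the squares of the 3 Hist2 H3 genes lie between 5.06 and 27.3, and most H4 rows are short.

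**Figure D2:**
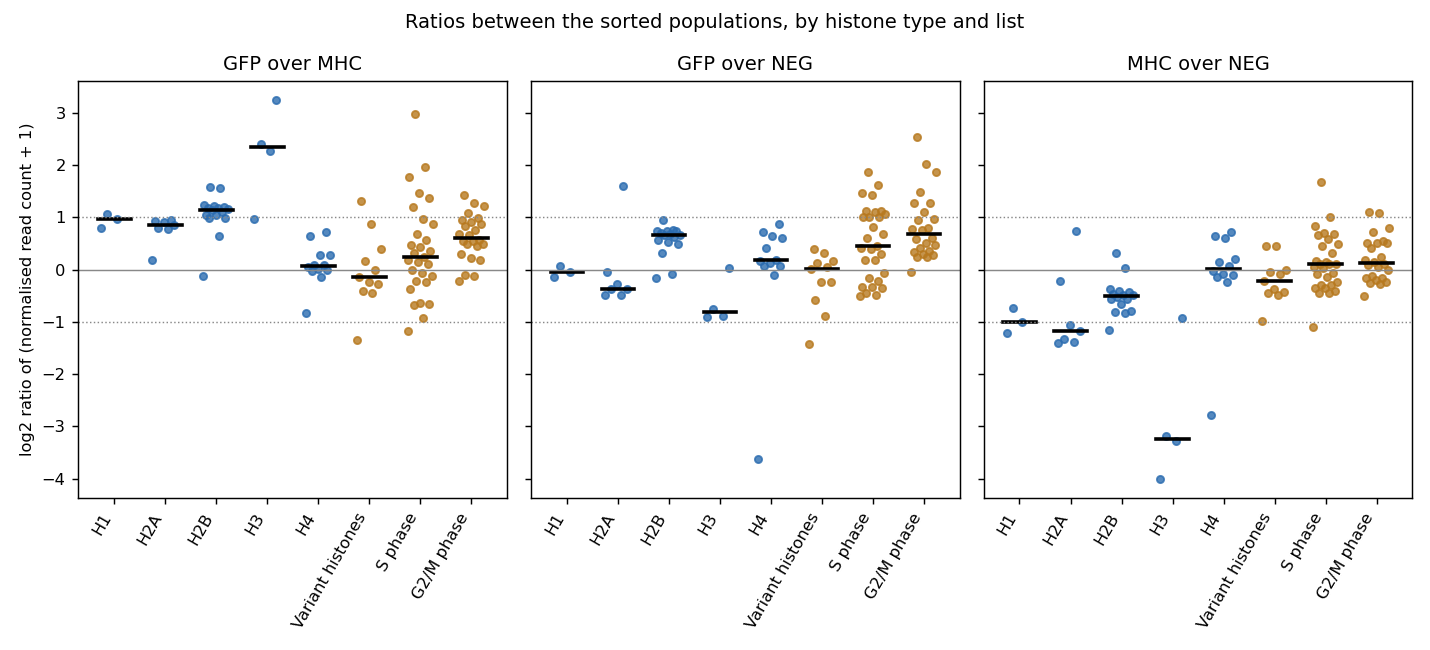
Log2 ratio of (value + 1) for each pair of libraries, 1 point per gene with a mean of 10 or more, for the histone types (blue) and the variant histone, S-phase and G2/M lists (ochre). Bars are medians and dotted lines mark 2-fold. For GFP over MHC the H2B median is 1.15 and the H4 median 0.07, and for MHC over NEG the H3 median is -3.24 while those of the S-phase and G2/M lists are 0.10 and 0.13.

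Linker histones were led by Hist1h1c (chr13:23738807-23740366 in the table's mm10 coordinates), a somatic H1 gene. It had values of 5554 in GFP and 3203 in MHC, against 5309 in NEG. MHC was the low library and the other two were close. The GFP value was 1.73 times the MHC value [1.66 to 1.81] and 1.05 times the NEG value [1.01 to 1.09], and the MHC value was 0.60 times the NEG value [0.58 to 0.63]. None of these passes the rule of size. Per kilobase of gene span, Hist1h1c averaged 3006 over the libraries, and the member next in that order, Hist1h2al, averaged 827.

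Hist1h1d, another somatic H1 gene, had 251 in GFP and 120 in MHC, against 277 in NEG. It was 2.10-fold higher in GFP than in MHC [1.69 to 2.63], and MHC was at 0.43 times NEG. Hist1h1e, also somatic, had 220 in GFP and 112 in MHC, against 226 in NEG. Its GFP value was 1.96 times the MHC value, just short of the rule, and its MHC value was 0.50 times that in NEG and passed it. The 3 genes thus had the same low library. The remaining 3 H1 genes, among them the testis-specific Hist1h1t, stayed under a mean of 10.

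Of the H2A genes, 7 of 19 had a mean of 10 or more, and 0 of the 7 passed the rule between GFP and MHC. All 4 Hist2 H2A genes passed it in MHC against NEG, as did Hist1h2al, which makes 5 of 7 lower in MHC. Hist2h2aa1 had 466 in GFP and 245 in MHC, against 650 in NEG. The GFP value was 1.90 times the MHC value [1.63 to 2.23] and 0.72 times the NEG value [0.64 to 0.81]. Hist2h2aa2 had 440 in GFP and 234 in MHC, against 616 in NEG, the same order. This pair of genes cannot be read separately, because 100% of the 50-base words of the Hist2h2aa2 transcript occur in other genes' transcripts and 89.2% of those of Hist2h2aa1 occur in its twin. Hist2h2aa1 also lies across Gm20634 and Gm20633, and Hist2h2aa2 across Gm20632, each with at least 25% as many reads.

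Hist1h2al had 334 in GFP and 172 in MHC, against 432 in NEG, again with NEG highest and MHC lowest. GENCODE M21 lists it as a processed pseudogene, and 65.5% of its 50-base words occur in Hist2h2aa2, so its reads may not be told apart from those of the Hist2 genes. Hist2h2ac had 138 in GFP and 79.0 in MHC, against 180 in NEG. Its MHC value was 0.44 times that of NEG. Hist2h2ab followed with 51.2 in GFP and 29.4 in MHC, against 62.1 in NEG, and lies across Gm15444, which holds at least 25% as many reads. In all 4 Hist2 H2A genes and in Hist1h2al the order was therefore NEG, GFP, MHC from high to low.

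Hist3h2a, the H2A gene of the small Hist3 cluster, kept that order with smaller differences. It had 511 in GFP and 450 in MHC, against 524 in NEG, and the GFP value was 1.14 times that of MHC. It lies across Trim17, which holds at least 25% as many reads, and the table does not separate them. Hist1h2ac was the lowest of the group, with 19.2 in GFP and 10.1 in MHC, against 5.65 in NEG. Its ratio of GFP to NEG was 3.40 [1.25 to 11.5], on values under the minimum of 20. Hist1h2ac lies across Gm24991 in the same way.

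The H2B genes of the Hist1 cluster were the largest group that stood higher in GFP than in MHC. Of the 15, 14 had a mean of 10 or more and 12 of these passed the rule, and over the 14 the GFP values were 1.57 to 3.02 times those of MHC with a median of 2.26. Against NEG, 0 of the 14 passed, but every one was higher in GFP, at 1.25 to 1.97 times with a median of 1.61, and the counting interval lay above 1 in 11 of 14. MHC stood at 0.556 to 1.26 times NEG. The order GFP, NEG, MHC was found in 19 of the 42 histone genes, and 13 of the 19 were H2B genes of Hist1. Genes of this group share sequence with each other, so the same reads may be counted in several of them. The 14 ratios and their intervals are therefore not separate observations, and the counts of genes above do not add up as repeated evidence.

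Hist1h2bc had the highest value, with 1050 in GFP and 509 in MHC, against 657 in NEG. It was 2.06-fold higher in GFP than in MHC [1.85 to 2.29], and its GFP value was 1.60 times that of NEG [1.44 to 1.77]. Hist1h2br had 284 in GFP and 122 in MHC, against 168 in NEG, and Hist1h2bq had 283 in GFP and 120 in MHC, against 168 in NEG. The near-equal values of this pair go with near-identical sequence, as 97.3% of the words of Hist1h2bq are shared and the 250-base promoter windows of both are identical. Hist1h2bj had 254 in GFP and 113 in MHC, against 159 in NEG. Hist1h2be had 208 in GFP and 91.2 in MHC, against 143 in NEG, and 6.28% of its words are shared, among the lowest of the group. Its annotated span of 37383 bases is long for a histone gene, so its level per kilobase is not comparable with the others.

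Hist1h2bg had 164 in GFP and 54.7 in MHC, against 97.1 in NEG, a 2.99-fold difference between GFP and MHC [2.20 to 4.13]. Hist1h2bk had 155 in GFP and 69.9 in MHC, against 94.9 in NEG. GFP was the high library in both. Of the H2B genes with a mean under 100, Hist1h2ba (the testis H2B gene), Hist1h2bh, Hist1h2bp, Hist1h2bm and Hist1h2bb passed the rule between GFP and MHC. Hist1h2bh showed the greatest ratio of the Hist1 H2B genes, with 150 in GFP and 49.6 in MHC, against 89.2 in NEG and a ratio of GFP to MHC of 3.02 [2.18 to 4.25]. Hist1h2bl, at 123 in GFP and 61.8 in MHC, did not reach the rule.

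Unlike the Hist1 H2B genes above, both H2B genes of Hist2 had a GFP value below that of NEG, with counting intervals that include 1. Hist2h2be had 64.9 in GFP and 70.9 in MHC, against 68.9 in NEG, which are level with each other, and its GFP value was 0.92 times that of MHC [0.65 to 1.29]. Hist2h2bb had 51.2 in GFP and 25.3 in MHC, against 57.6 in NEG, and it was the only H2B gene lower in MHC than in NEG by the rule. Its GFP value was 2.02 times that of MHC [1.24 to 3.38], inside the range of the Hist1 H2B genes, without passing the rule. In neither transcript was a 50-base word found in another, non-overlapping gene. Hist2h2bb is overlapped by Gm20628.

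The H3 genes of the Hist2 cluster had the ratios farthest from 1 among the 42 genes in both pairs that involve MHC. Hist2h3c1 (chr3:96246685-96248509) had 149 in GFP and 27.3 in MHC, against 276 in NEG, from 163, 27 and 244 reads. It was 5.45-fold higher in GFP than in MHC [3.61 to 8.52], its GFP value was 0.54 times that of NEG [0.44 to 0.66], and NEG stood 10.1-fold above MHC [6.76 to 15.6]. Hist2h3c2 (chr3:96238110-96239127) had 75.9 in GFP and 7.09 in MHC, against 129 in NEG. Its ratio of GFP to MHC was 10.7 [4.97 to 27.4] and rests on 7 reads in MHC. Hist2h3b (chr3:96268654-96269141) had 28.3 in GFP and 5.06 in MHC, against 54.2 in NEG. The ratio of GFP to MHC was 5.59 [2.16 to 18.4], on 5 reads in MHC.

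All 3 genes had the order NEG, GFP, MHC, and their sum was 253 in GFP and 39.5 in MHC, against 459 in NEG. The sum in MHC was 0.0861 times that in NEG, while the sum over all histone genes was 0.581 times. Sequence and neighbours limit how far the 3 can be told apart, and their sum may hold a shared read more than once. Hist2h3c1 and Hist2h3c2 share a run of 231 of the 250 bases of their promoter windows, and 34.7%, 63.5% and 79.7% of the words of Hist2h3c1, Hist2h3c2 and Hist2h3b occur elsewhere in the transcripts. Hist2h3c1 is also overlapped by Gm20634 and Hist2h3b by Gm20628, while Hist2h3c2 has no such neighbour. The H3 genes of Hist1 were low. Hist1h3d alone of the 9 had a mean of 10 or more, with 12.8 in GFP and 6.08 in MHC, against 12.4 in NEG.

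The H4 genes of Hist1 stayed within 2-fold in each pair of libraries. Of 13 H4 genes, 12 had a mean of 10 or more, and the 11 of Hist1 showed 0 calls in any pair of libraries. Their median ratio was 1.07 for GFP to MHC, 1.15 for GFP to NEG and 1.05 for MHC to NEG. Values of the 11 ran 13.7 to 57.6 in GFP, 13.2 to 34.4 in MHC and 9.04 to 37.3 in NEG, so the libraries overlapped. The highest, Hist1h4i, had 57.6 in GFP and 34.4 in MHC, against 37.3 in NEG, and its ratio of GFP to MHC was 1.67 [1.09 to 2.62].

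Hist4h4, the single gene of the Hist4 cluster on chromosome 6 (chr6:136801553-136804431), stood apart. It had 1.83 in GFP and 4.05 in MHC, against 33.9 in NEG, from 2, 4 and 30 reads, so NEG alone was clearly above a few reads. NEG stood 18.5-fold above GFP [4.70 to 160] and 8.36-fold above MHC [2.95 to 32.7]. It was the 1 histone gene lower in GFP than in NEG by the rule.

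H2A and H2B genes often lie head to head and share the interval between their starts. The table holds 12 such pairs, 11 in Hist1, with gaps of 167 to 305 bases. In the 11 Hist1 pairs the H2B gene had 20 to 2234 reads over the 3 libraries together and the H2A gene 2 to 36, and 10 of the 11 H2A genes are among those with a mean under 10. Per kilobase of span, the H2B gene had more reads in all 11, and the counting interval of the ratio lay above 1 in 10. Hist1h2bc and Hist1h2ac, whose shared interval is printed above, had 2234 and 36 reads, a ratio per kilobase of 18.6 [13.4 to 26.6]. Hist1h2bj had 531 reads and Hist1h2ag 3, which leaves the ratio anywhere in [61.3 to 876]. The pair whose interval included 1 was Hist1h2bf with 20 reads and Hist1h2ad with 14, at 1.77 [0.85 to 3.79]. The pair of Hist2 was the reverse, as Hist2h2be had 202 reads and Hist2h2ac 388, a ratio per kilobase of 0.10 [0.087 to 0.123]. Spans include introns where a gene has them and any longer annotated end, so a ratio depends on the annotated ends. Genes of different pairs also share sequence. The share of words found in other genes was 97.3% in Hist1h2bq and 88.7% in Hist1h2br, and 93.5% and 93.1% in their partners Hist1h2ao and Hist1h2ap. The same reads may thus enter several pairs, and the 11 are not separate comparisons.

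**Figure D3:**
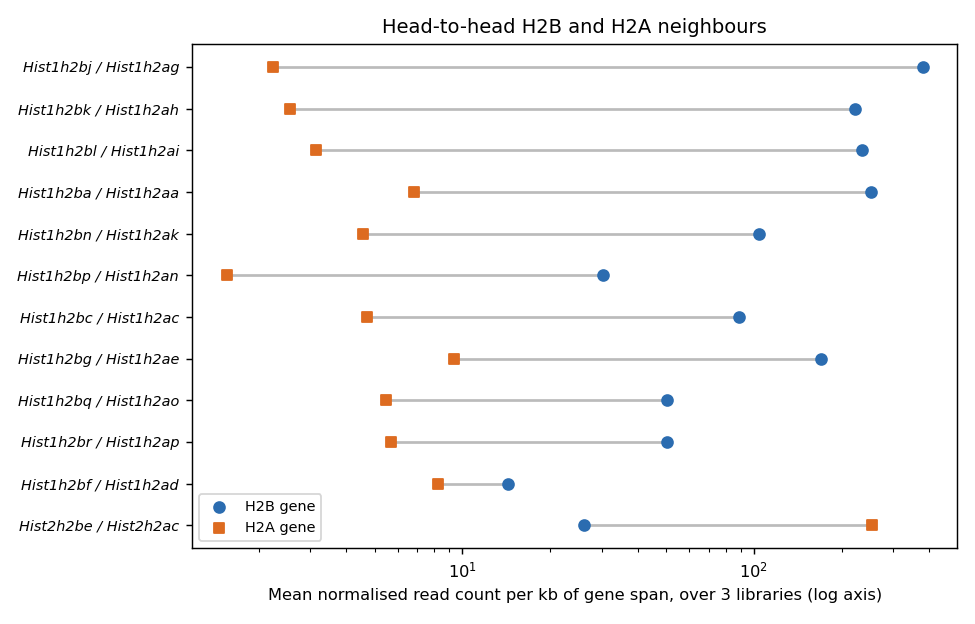
Mean value per kilobase of gene span (log axis) of the 2 genes of each head-to-head H2A and H2B pair, 1 row per pair, joined by a line. The H2B gene lies to the right in the 11 Hist1 pairs and to the left in the Hist2 pair of Hist2h2be and Hist2h2ac. The Hist1 H2A points rest on 2 to 36 reads over the 3 libraries.

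Reads from near-identical copies limit what single genes can show. Of the 42 genes, 27 have 25% or more of the 50-base words of their transcripts in another gene, where 50 bases is the read length. The median share was 8.24% in H1, 38.6% in H2A, 44.0% in H2B, 49.1% in H3 and 39.9% in H4. Among the other 15 genes, 3 (20%) were higher in GFP than in MHC, near the 14.5% of all genes and below the 38.1% of the 42, and 5 (33.3%) were lower in MHC than in NEG, against 4.74% of all genes. In both pairs 0 of the 15 went in the opposite direction. Those 15 include Hist1h1d, Hist1h2be and Hist1h2bh, which make up the 3. The shares are of the annotated GENCODE transcripts, which can be longer than the span counted. Hist1h2bh spans 436 bases, while its annotated transcript has 1679 bases and 307 shared words. Hist1h4c and Hist1h4d span 395 and 393 bases, with annotated transcripts of 820 and 1138. The counted part of such genes may be shared to 25% or more, so the 15 may not all be free of shared reads. Separately, 10 of the 42 genes lie across a gene with at least 25% as many reads. Without these 10, 13 of 32 genes were higher in GFP than in MHC and 6 of 32 lower in MHC than in NEG.

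**Figure D4:**
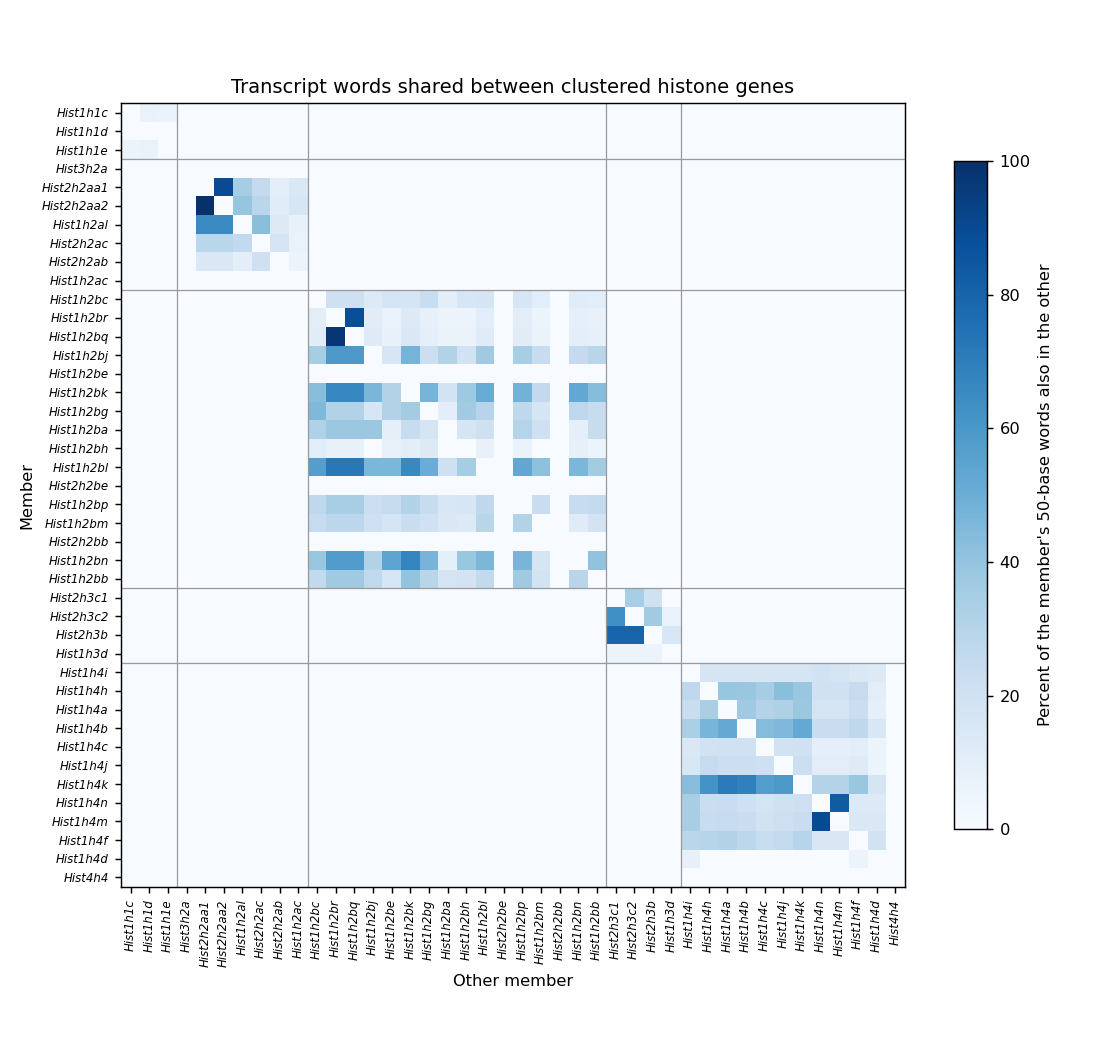
Share of the 50-base words of 1 histone gene (row) that also occur in another (column), as a percentage from pale (0) to dark (100), for the 42 genes with a mean of 10 or more in blocks of H1, H2A, H2B, H3 and H4. Shares under 5% are drawn as 0. The coloured cells lie within the blocks, and the darkest are Hist2h2aa2 in Hist2h2aa1 at 100% and Hist1h2bq in Hist1h2br at 97.3%.

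The 26 genes with a mean under 10 were mostly H2A and H3 genes of Hist1. They comprised 12 of the 14 H2A and 8 of the 9 H3 genes of that cluster, 3 H1 genes, the Hist1 H2B gene Hist1h2bf, Hist2h4 and Hist3h2ba. Together they had 151 reads in GFP and 64 in MHC, against 71 in NEG. In MHC 6 of them and in NEG 2 had 0 reads, which allows a value of up to 3.04 and 3.39, and in GFP 0 of them. No ratio between libraries is given for these genes singly at this depth.

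Genes that act with the clustered histones were examined as lists. Of 11 replication-independent variant histones, 1 was higher and 1 lower in GFP than in MHC, where 14.5% of all genes were higher and 15.3% lower. The median log2 difference of the 11 was -0.15. The H3.3 genes had the highest values. H3f3b had 21638 in GFP and 16553 in MHC, against 21496 in NEG, and H3f3a had 9826 in GFP and 5331 in MHC, against 7479 in NEG. The gene higher in GFP was H2afj, with 786 in GFP and 317 in MHC, against 630 in NEG. The gene lower in GFP was H2afy2, which encodes a macroH2A, with 611 in GFP and 1557 in MHC, against 1643 in NEG.

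Of 17 genes for the processing and turnover of histone mRNA, 1 was higher and 1 lower in GFP than in MHC, where 14.5% of all genes were higher and 15.3% lower. In the other pairs 0 of the 17 passed the rule. Of all genes, 13.0% were higher and 14.0% lower in GFP than in NEG. In MHC against NEG these shares were 4.92% and 4.74%. Slbp had 722 in GFP and 1370 in MHC, against 978 in NEG, so it was highest where the histone sum was lowest, without passing the rule. Of 12 histone chaperones, 2 were higher and 0 lower in GFP than in each of the other libraries, a share near the 14.5% and 13.0% of all genes that were higher against MHC and NEG. These were Chaf1b, a subunit of the chromatin assembly factor that places new H3 and H4 behind the replication fork, and Asf1b, which hands H3 and H4 to it. Chaf1b had 581 in GFP and 146 in MHC, against 134 in NEG. Asf1b, picked out after its value was seen, had 144 in GFP and 54.7 in MHC, against 53.1 in NEG.

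Among 29 S-phase genes, 6 were higher and 1 lower in GFP than in MHC, where 14.5% of all genes were higher and 15.3% lower. In GFP against NEG, 10 were higher and 0 lower, where 13.0% of all genes were higher and 14.0% lower. In MHC against NEG, 2 were higher and 1 lower, where 4.92% of all genes were higher and 4.74% lower. Tyms, the thymidylate synthase, had 906 in GFP and 114 in MHC, against 247 in NEG, the order of the Hist1 H2B genes. Pcna, the sliding clamp of the replication fork, had 1937 in GFP and 3021 in MHC, against 2014 in NEG, a different order. Among 24 genes of G2 and mitosis, 4 were higher and 0 lower in GFP than in MHC, and 7 higher and 0 lower in GFP than in NEG. In MHC against NEG, 2 of them were higher and 0 lower. Of all genes, 14.5%, 13.0% and 4.92% were higher in these pairs and 15.3%, 14.0% and 4.74% lower. Aurkb, a mitotic kinase, had 122 in GFP and 44.6 in MHC, against 20.3 in NEG. The median log2 difference of GFP against MHC was 0.24 for the S-phase list and 0.61 for the mitotic list, beside 0.94 for the histone genes. Against NEG it was 0.45 and 0.68, beside 0.18. In MHC against NEG it was 0.10 and 0.13, beside -0.51. Of 10 cell cycle inhibitors, 2 were higher and 0 lower in GFP than in MHC, with a median of -0.42. Against NEG, 2 were higher and 1 lower in GFP, with a median of -0.12. Of all genes, 14.5% and 13.0% were higher in these pairs and 15.3% and 14.0% lower. Cdkn1a, the inhibitor p21, had 17830 in GFP and 28284 in MHC, against 38573 in NEG, and was the gene lower in GFP than in NEG. The part of proliferation in the histone values was not tested.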

How the data were processed

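RNA of 3 sorted populations, 1 library each, was analysed from a table the authors deposited. Sorted cells were extracted with a small-sample kit and TruSeq libraries were read as single reads of 50 bases, per the labels' protocols. The submitters' processing notes name DESeq2 1.2.10, STAR 2.3.0e, bedtools 2.17.0, FastQC 0.11.2 and build mm10 without their roles. The deposited signal of a gene is a number of reads over a size factor of its library, since 100% of the values were whole multiples of 1 step within 0.01. The sources used here do not state how reads on several genes, on either strand or at several places were counted. The near-identical Hist1h2bq and Hist1h2br had 310 and 311 reads in GFP, 118 and 120 in MHC, and 149 each in NEG. A read may therefore be counted in more than 1 gene, and sums over genes may hold it more than once.

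Ratios were formed on the log2(value + 1) scale over genes with a mean of 10 or more, and folds are quotients of deposited values. With 1 library per population no model could be fitted to the recovered reads, so none calls any gene. Histone genes with a mean of 100 or more were named with all values, those below it by range, count and any passing of the 2-fold rule, and of other lists the 4 highest by mean and the extremes of each ratio. The histone genes and the lists were chosen with earlier results of these data known. Transcript sequences came from GENCODE M21, which matched 58 genes by identifier and 10 by symbol and position, and promoters from RefSeq. The computation was tested on simulated data. Without molecular identifiers, reads are not independent molecules, and intervals and limits (3 reads for a count of 0) cover counting error only. Python 3.11.15, pandas 2.3.3, numpy 2.4.6, scipy 1.17.1 and matplotlib 3.10.9 were used.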

Additional observations from a re-analysis of the deposited data

Results flagged for a closer look

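Among rows of the table that the histone rule leaves out, 2 genes listed as pseudogenes were above the limit of 3 reads that a count of 0 allows. Hist1h2aj had 27 reads in GFP and 9 in MHC, against 8 in NEG. Hist3h2bb-ps had 2 reads in GFP and 4 in MHC, against 0 in NEG. Neither was counted as a histone gene, though Hist1h2aj is among all the genes behind the background shares and medians. It also lies across Hist1h2bm, which was left out with the genes lying across another gene.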

How the results depend on the processing

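The median log2 difference of the histone genes kept its sign in each pair of libraries under the 9 alternatives run for it, at 0.79 to 1.10 for GFP against MHC, 0.014 to 0.42 for GFP against NEG and -0.77 to -0.45 for MHC against NEG. Scaling by the total reads of each library moved the summed ratio to 2.06 for GFP to MHC and 1.19 for GFP to NEG. It gave 23 of 42 genes past the rule between GFP and MHC in place of 16, all higher in GFP. Between GFP and NEG it gave 3 genes (2 higher, 1 lower) in place of 1 (0 higher, 1 lower). That scaling moved the median of all genes by 0.167 and 0.163 in these pairs. Upper-quartile scaling gave a sum ratio of 1.76 for GFP to MHC and 14 genes past the rule in that pair. Adding 10 in place of 1 to each value gave 13 genes there. With a mean of 100 or more, the counts were 9 of 16 (GFP and MHC), 0 (GFP and NEG) and 7 (MHC and NEG), and with at least 50 asked of the higher library the count for GFP and NEG was 0; these limits keep fewer genes. Without Hist1h1c the sum ratios were 1.92 for GFP to MHC and 0.561 for MHC to NEG. Without the 10 genes lying across another gene, 6 genes were past the rule in MHC against NEG, and the sum ratios were 1.14 for GFP to NEG and 0.612 for MHC to NEG. An alternative chosen after seeing the data left out genes sharing 25% or more of the 50-base words of their annotated transcripts. Some genes it kept are counted over spans shorter than these transcripts. It gave 3 of 15 genes past the rule for GFP and MHC and 5 of 15 for MHC and NEG. Over the 21 of all 68 genes that remain, the sum ratios were 1.69 and 0.619. The cause of these shifts was not tested. No paired analysis was possible because each population has 1 library. Depth limits the genes under a mean of 10 and the Hist2 H3 genes in MHC, which rest on 5 to 27 reads.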
